A study of Mus musculus with 6 samples.

Results

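Mouse chromosome 18 held 8511 of the 149724 open chromatin regions found by ATAC-seq in 3 pro-B cell lines. A region is a stretch of the genome in which peaks of the 6 deposited lists overlapped by at least 1 bp, and all regions on chromosome 18 are described here. The chromosome was chosen by its smaller share of the peaks in both libraries of the CBE_2 line than in the other libraries. Peak numbers and ranks in CBE_2 are therefore given as descriptions with no test. The other chromosomes held 141213 regions.

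The lines were CBE_2, CBE_1 and WT, with 2 ATAC-seq libraries each. CBE_2 and CBE_1 carry the genotype IGCR1-/- and WT is wild type. All 3 are RAG2-deficient pro-B lines of strain 129SV from bone marrow, assayed without treatment at 200000 cells per library and 11 cycles of PCR. Separate cultures are not stated for the duplicates, and the spread between them may be technical. Each genotype group is a single line, or a pair of lines for IGCR1-/-, so a line's own history and its genotype cannot be told apart.

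ATAC-seq uses a transposase that inserts adapters where DNA is not covered by nucleosomes, so that promoters and enhancers in use appear as peaks. Pro-B cells are the precursors in which the immunoglobulin heavy chain locus, IgH, is assembled. RAG2 is a subunit of the recombinase that cuts it, and IGCR1 is a control region between its VH and D segments that binds the insulator protein CTCF. IgH lies on another chromosome, so no region described here belongs to it. In the mouse, chromosome 18 carries among others Tcf4, Cd74, Malt1 and Nfatc1, which are used in lymphocytes, and the protocadherin clusters, which are used in neurons.

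The lists held 94665 and 97522 peaks in CBE_2, 72318 and 80242 in CBE_1, and 112241 and 106056 in WT. The read depth behind them is unknown, and the lists give no coverage outside peaks, so the number of copies of the chromosome was not measured. Lists of different length are compared below by shares, by peaks per 10000 peaks of the list, and by ranks within a list. The files hold positions and no expression or gene names, so the cell type was not checked against marker genes.

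In CBE_2, chromosome 18 was somewhat less dense in peaks than the mean of the list, while in CBE_1 and WT it was among the densest chromosomes. It carried 2954 and 3042 peaks in CBE_2, 4109 and 4794 in CBE_1, and 6032 and 5510 in WT. As a share of the list this was 3.12% in both CBE_2 libraries, with a Wilson 95% interval of 3.01 to 3.23% in each. The CBE_1 libraries had 5.68% (5.52 to 5.85%) and 5.97% (5.81 to 6.14%), and the WT libraries 5.37% (5.24 to 5.51%) and 5.20% (5.06 to 5.33%). The 3 lines did not overlap, and the CBE_2 libraries lay farthest from the others. Intervals cover counting error only.

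The mean share in CBE_2 was 0.590 times that in WT, with an SD of 0.0115 over the pairs of libraries. This was the lowest such ratio of the 20 chromosomes compared. Between CBE_1 and WT the ratio was 1.10 (SD 0.0386), higher in both CBE_1 libraries than in both WT libraries. An exact two-sided permutation test gave p = 0.333, the smallest that n = 2 libraries against 2 allow. In the better 50% of each list by significance, CBE_2 over WT was 0.818 and CBE_1 over WT turned to 0.972. With every list cut to its best 72318 peaks, CBE_2 over WT was 0.732 and CBE_1 over WT was 1.33. The direction of the CBE_1 difference thus depended on how the lists were cut, and that of CBE_2 did not under these settings.

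Set against the whole list, the peak density of chromosome 18 was 0.917 times the list mean in both CBE_2 libraries, 1.67 and 1.76 times in CBE_1, and 1.58 and 1.53 times in WT. Counted down from the densest of 20 chromosomes, it was the 16th in both CBE_2 lists, the 1st in both CBE_1 lists and the 2nd in both WT lists. The line that stands apart from the other lines was thus the one in which the chromosome was close to the mean of its own list.

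**Figure D1:**
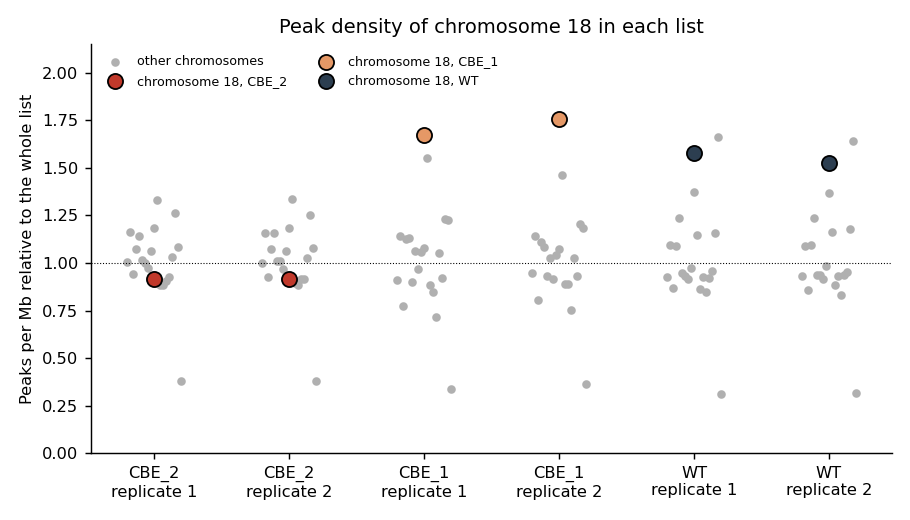
Peaks per Mb of each chromosome relative to the whole list (vertical axis), for the 6 lists (horizontal axis); the large points are chromosome 18, the grey points the other chromosomes, and the dotted line the list mean. Chromosome 18 lies at 0.917 in both CBE_2 lists, at 1.67 and 1.76 in the CBE_1 lists, and at 1.58 and 1.53 in the WT lists.

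In the share of peaks, the lines differed mainly among weak peaks. When each list was cut into 4 classes of equal size by the authors' significance, the strongest class held 3.01 and 3.00% of its peaks on chromosome 18 in CBE_2, 3.23 and 3.28% in CBE_1, and 3.50 and 3.42% in WT. In the weakest class the share was 3.24 and 3.40% in CBE_2, 10.13 and 11.04% in CBE_1, and 7.84 and 8.07% in WT. In the class next to the strongest it was 3.03 and 3.17% in CBE_2, 4.05 and 3.95% in CBE_1, and 4.03 and 3.97% in WT. The 3 lines thus lay close together in the strongest class only, and in the weakest class the CBE_2 lists had by far the smallest share.

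The weakest class took 25.9 and 27.2% of the chromosome 18 peaks of CBE_2, so the classes of the list were nearly evenly represented there. It took 44.6 and 46.2% of those of CBE_1 and 36.5 and 38.9% of those of WT. The median chromosome 18 peak stood at percentile 48.2 and 48.8 of the CBE_2 lists, 29.8 and 28.3 of the CBE_1 lists, and 33.7 and 34.9 of the WT lists, where a high percentile is a strong peak. In the CBE_1 and WT lists this was the lowest median of the 20 chromosomes.

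The median chromosome 18 peak was wider and of higher fold over background in CBE_2 than in the other lines. These medians are over the peaks each list called, which are different sets with more weak peaks in CBE_1 and WT, and the order is the reverse over the regions that all lists hold, given below. The median chromosome 18 peak was 464 and 455.5 bp wide in CBE_2, 365 and 376 bp in CBE_1, and 388 and 391 bp in WT. Peaks on the other chromosomes had medians of 464 and 459 bp in CBE_2, 469 and 471 bp in CBE_1, and 448 and 449 bp in WT. The narrow typical peak of chromosome 18 was thus seen in CBE_1 and WT and not in CBE_2. The deposited fold over background, the authors' value for each peak, had a median of 4.29 and 4.19 on chromosome 18 in CBE_2, 3.47 and 3.13 in CBE_1, and 3.25 and 3.41 in WT. Elsewhere it was 4.41 and 4.29 in CBE_2, 4.67 and 4.38 in CBE_1, and 4.11 and 4.28 in WT.

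Peaks covered 2073 and 2092 kb of the chromosome in CBE_2, 2435 and 2908 kb in CBE_1, and 3727 and 3404 kb in WT. This was 3.00 and 2.98% of all DNA under peaks in CBE_2, 4.63 and 4.88% in CBE_1, and 4.65 and 4.51% in WT. Over all lists the median merged region was 390 bp wide on chromosome 18, with an interquartile range of 260 to 652 bp, against 454 bp on the other chromosomes. Regions present in all 6 lists had nearly the same width as elsewhere, with medians of 1062 bp on chromosome 18 and 1053 bp on the others. A region found in 1 list had a median of 243 bp here and 238 bp elsewhere.

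Along the chromosome the difference between CBE_2 and WT was not even. Scaled peak numbers, the peaks in a bin per 10000 peaks of the list, were compared in 87 bins of 1 Mb, and least-squares segmentation placed 2 breaks in the log2 ratio of CBE_2 over WT, at 29 and 84 Mb. In the 25 bins of the proximal segment, 3 to 29 Mb, the mean log2 ratio was 0.04 (SD 0.39 over bins). In the 55 bins of the middle segment, 29 to 84 Mb, it was -0.86 (SD 0.66), and 53 of the bins lay below 0. In the 7 bins of the distal segment, 84 to 91 Mb, it was -1.81 (SD 0.55), with 7 of 7 below 0. The proximal end thus had like peak numbers in both lines, and the shortfall of CBE_2 was deepest at the distal end.

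A single break at 29 Mb took 34.5% of the spread between bins, the highest share of 20 chromosomes. Chromosomes 10 and 19 came next, with 29.1 and 27.0%. Breaks of some kind were placed on 9 of 20 chromosomes in this ratio. Each of the 4 pairings of a CBE_2 with a WT library gave a first break at 28 or 29 Mb and a last one at 84 to 86 Mb, with 2 breaks in all but the pair of CBE_2 replicate 1 and WT replicate 2, which gave 4, whereas the 2 libraries of a line gave no break against each other in any line. Over these pairings, which share libraries, the proximal break was held to within 1 bin. With a library left out it lay at 28 to 30 Mb, and with the better 50% of each list it was the one break found, at 30 Mb. The bin at 29 Mb held 0 and 0 peaks in CBE_2, 0 and 2 in CBE_1, and 2 and 1 in WT. Its ratio therefore leans on the 0.5 peaks added to each count. The distal break was less fixed, at 70 Mb with bins of 5 Mb and at 87 Mb with segments of at least 3 bins.

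CBE_1 over WT also stepped at 29 Mb. Its mean log2 ratio was 0.68 (SD 0.31) in 3 to 29 Mb, 0.02 (SD 0.43) in 29 to 79 Mb, 0.70 (SD 0.64) in 79 to 84 Mb and -0.42 (SD 0.36) in 84 to 91 Mb. The single break at 29 Mb took 30.5% of the spread, again the highest share of 20 chromosomes. The ratios of both mutated lines are taken against the same WT libraries, so the WT values enter both profiles. Library pairs placed the first CBE_1 break at 24 to 30 Mb. Both pairs with CBE_1 replicate 2 gave that break alone, so the steps at 79 and 84 Mb were not seen in every pair.

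The ratio of CBE_2 over CBE_1, which uses no WT library, had no break near 29 Mb. It held a mean log2 ratio of -0.76 (SD 0.44) over 67 bins in 3 to 71 Mb, with 66 of them below 0, and of -1.33 (SD 0.56) over 20 bins in 71 to 91 Mb, with 20 below 0. Its break at 71 Mb took 20.8% of the spread, the 6th highest share of 20 chromosomes, and moved to 48 Mb in 1 of 4 library pairs. Against CBE_1, the CBE_2 lists were thus short of peaks along the whole chromosome, and the step at 29 Mb appeared where WT was in the ratio.

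**Figure D2:**
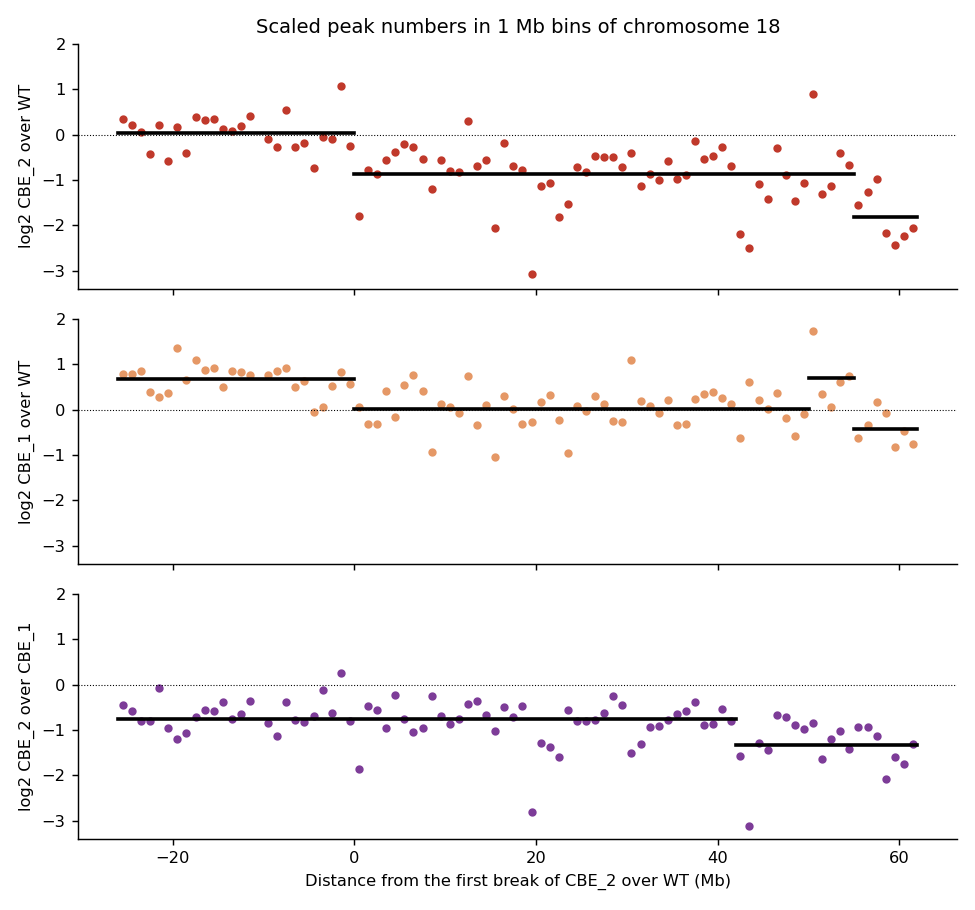
The log2 ratio of scaled peak numbers (vertical axes) in 1 Mb bins of chromosome 18, by distance from the first break of CBE_2 over WT in Mb (horizontal axis), for CBE_2 over WT (top), CBE_1 over WT (middle) and CBE_2 over CBE_1 (bottom); points are bins and bars segment means. The top 2 profiles step down at distance 0, by CBE_2 means of 0.04 and -0.86 and CBE_1 means of 0.68 and 0.02 on either side, and the bottom profile steps at 42 Mb.

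The densities behind these ratios rose along the chromosome in every line, and by different amounts. In the proximal segment there were 2.47 and 2.42 peaks per Mb per 10000 peaks in CBE_2, 3.69 and 3.93 in CBE_1, and 2.45 and 2.47 in WT. In the middle segment there were 3.95 and 4.01 in CBE_2, 7.45 and 7.48 in CBE_1, and 6.74 and 6.59 in WT. In the distal segment there were 4.36 and 4.09 in CBE_2, 8.95 and 12.02 in CBE_1, and 14.8 and 13.3 in WT. The mean of the whole list is 3.87 in every library. CBE_2 and WT were thus both below the list mean in the proximal segment. In the middle and distal segments CBE_2 was close to the list mean, while CBE_1 and WT lay far above it.

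As shares of the list, the proximal segment held 0.641 and 0.629% in CBE_2, 0.960 and 1.02% in CBE_1, and 0.636 and 0.643% in WT. The middle segment held 2.17 and 2.20% in CBE_2, 4.10 and 4.11% in CBE_1, and 3.70 and 3.62% in WT. The distal segment held 0.305 and 0.286% in CBE_2, 0.626 and 0.841% in CBE_1, and 1.03 and 0.928% in WT. The proximal shares of CBE_2 and WT overlapped, and the CBE_2 shares of the other segments lay below those of both other lines. Between CBE_2 and WT the ratio was 0.993 in the proximal, 0.597 in the middle and 0.302 in the distal segment, and between CBE_1 and WT it was 1.55, 1.12 and 0.748.

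Cutting every list to its best 72318 peaks changed the distal picture. The CBE_2 over WT ratio of the distal segment was then 0.434 and that of CBE_1 over WT turned to 1.42. In the better 50% of each list the middle segment had 0.788 for CBE_2 over WT and turned to 0.949 for CBE_1 over WT, and the distal one had 0.662 and 0.746. The CBE_2 lists stayed below WT in both segments under each of these settings, and the direction of CBE_1 did not hold.

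**Figure D3:**
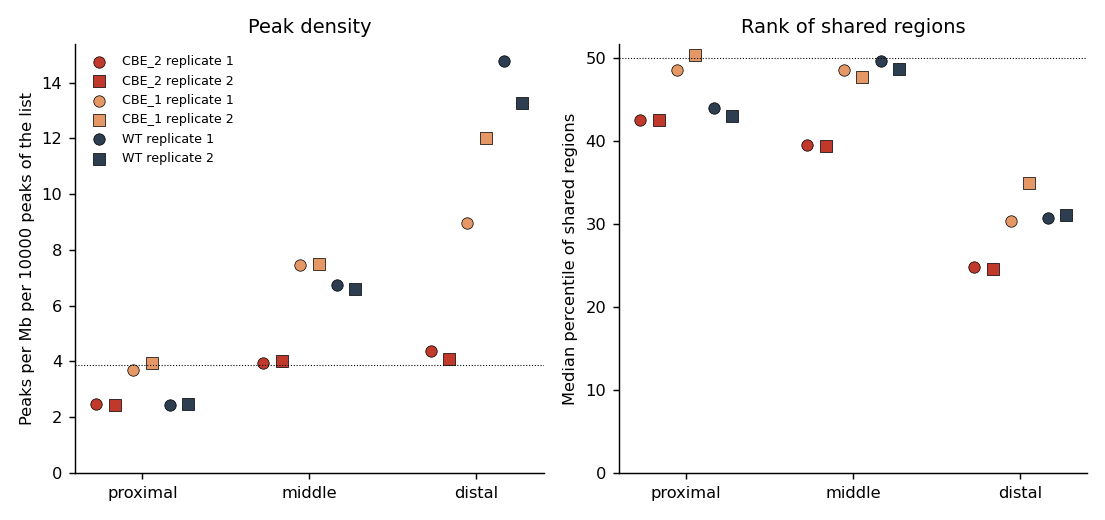
Left, peaks per Mb per 10000 peaks of the list (vertical axis) in the 3 segments of chromosome 18; right, the median percentile of the regions present in all 6 lists (vertical axis). Each point is a library, coloured by line, and the dotted lines mark the list mean of 3.87 and the 50th percentile. CBE_2 densities are close to those of WT in the proximal segment (2.47 and 2.42 against 2.45 and 2.47) and far below them in the distal one (4.36 and 4.09 against 14.8 and 13.3).

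Counted by bin, both CBE_2 libraries had fewer scaled peaks than the other 4 libraries in 64 of 87 bins of chromosome 18 (73.6%), where the share over all 2439 bins of the genome was 10.4%. These were 8 of 25 proximal, 49 of 55 middle and 7 of 7 distal bins. Against WT alone, both CBE_2 libraries were lower in 66 bins (75.9%; genome 34.4%) and higher in 11 bins (12.6%; genome 40.1%). Both CBE_1 libraries were lower than WT in 20 bins (23.0%; genome 47.6%) and higher in 44 bins (50.6%; genome 31.2%). With bins of 5 Mb, CBE_2 was lowest in 15 of 19, against 10.99% of such bins over the genome.

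The bins with the lowest CBE_2 over WT ratios, among 68 bins with at least 20 WT peaks per library, lay mostly at the distal end. The bin at 88 to 89 Mb had 27 and 25 peaks in CBE_2, 40 and 89 in CBE_1, and 173 and 151 in WT, a scaled ratio of 0.186 between CBE_2 and WT. The next bin, at 89 to 90 Mb, had 30 and 39 in CBE_2, 79 and 109 in CBE_1, and 198 and 175 in WT, a ratio of 0.212. In both bins all libraries of a line were apart from those of the others, with WT highest. The bins at 71 to 72 Mb, 87 to 88 Mb and 44 to 45 Mb followed with ratios of 0.219, 0.223 and 0.238.

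The bins at 88 and 89 Mb were also among those with the most regions. The bin at 80 to 81 Mb held 375, the most of any, followed by those at 84 Mb with 328, at 89 Mb with 259, at 88 Mb with 242 and at 61 Mb with 241. Of the 242 regions at 88 Mb, 7 were present in all 6 lists. At 80 Mb this was the case for 64 of 375.

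Some bins ran the other way. The bin at 79 to 80 Mb had 45 and 51 peaks in CBE_2, 59 and 78 in CBE_1, and 31 and 27 in WT, with scaled ratios of 1.87 between CBE_2 and WT and 3.34 between CBE_1 and WT. Both mutated lines exceeded WT there, although the bin lies between stretches where CBE_2 was low. The other bins with the highest CBE_2 over WT ratios were proximal: 1.45 at 21 Mb, 1.26 at 3 Mb, 1.24 at 12 Mb and 1.16 at 7 Mb. Over all 87 bins, with no minimum on WT peaks, 71 had a ratio below 1.

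The 1759 regions present in all 6 lists allow a comparison of strength over the same regions in every list. Their deposited folds were turned into percentiles among the 47767 such regions of the genome, within each list. On chromosome 18 the median percentile was 39.5 and 40.4 in CBE_2, 47.5 and 47.8 in CBE_1, and 47.8 and 47.3 in WT. The chromosome's common open regions thus ranked lower in CBE_2 than in the other lines, which lay together a little below the middle of the shared regions. The median fold relative to that of the other chromosomes was 0.815 and 0.822 in CBE_2, 0.953 and 0.953 in CBE_1, and 0.949 and 0.947 in WT.

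The width of these regions under peaks moved alike. Relative to the other chromosomes, the median covered width was 0.822 and 0.814 in CBE_2, 1.06 and 1.04 in CBE_1, and 1.04 and 1.04 in WT. In bp it was 663 and 661 in CBE_2, 692 and 756 in CBE_1, and 901 and 870 in WT.

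Of the 1759 regions, 1120 (63.7%) ranked lower in both CBE_2 libraries than in both WT libraries, where the share over all shared regions of the genome was 33.2%. A further 308 (17.5%) ranked higher, against 33.2% over the genome. Against CBE_1, 980 regions (55.7%; genome 34.1%) ranked lower in CBE_2 and 299 (17.0%; genome 31.5%) ranked higher. For CBE_1 against WT, 643 regions (36.6%; genome 33.6%) were lower and 566 (32.2%; genome 36.9%) were higher, close to the background. The median difference in percentile was -6.35 for CBE_2 minus WT, -0.34 for CBE_1 minus WT and -5.64 for CBE_2 minus CBE_1. Only chromosome 19, at -10.9, had a lower CBE_2 minus WT median among the 20 chromosomes.

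Ranks differed between the proximal segment and the rest, but did not follow the order of the peak numbers. For CBE_2 minus WT the median difference was -1.04 over 358 shared regions of the proximal segment, -7.69 over 1278 of the middle segment and -3.91 over 123 of the distal segment. Regions lower in CBE_2 than WT made up 42.7% of the proximal, 69.9% of the middle and 60.2% of the distal ones. For CBE_2 minus CBE_1 the medians were -6.23, -5.58 and -2.65, and for CBE_1 minus WT 3.20, -1.42 and -0.80. The proximal segment was where CBE_1 ranked above WT, with 46.4% of its regions higher and 21.5% lower. Segmentation of the rank differences by bin for CBE_2 minus WT gave 1 break, at 30 Mb, and did not separate the middle from the distal segment.

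The distal segment was weak in every list. Its shared regions had median percentiles of 24.8 and 24.5 in CBE_2, 30.4 and 34.96 in CBE_1, and 30.8 and 31.1 in WT. Its peaks had median widths of 349 and 367 bp in CBE_2, 292 and 302 bp in CBE_1, and 317 and 318 bp in WT, narrower than the median of the whole chromosome in each list. Regions present in all 6 lists made up 7.70% of its 1598 regions, against 31.3% of the 1145 proximal and 22.2% of the 5768 middle regions.

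Which lists a region appeared in recounts the same peaks by region, so it is no separate support for the low CBE_2 share. On chromosome 18, 20.7% of regions were present in all 6 lists and 38.5% in 1 list, against 32.6% and 27.3% on the other chromosomes. Missing from both CBE_2 lists and present in the other 4 were 264 regions (3.10%; genome 0.653%). Missing from both CBE_1 lists were 77 (0.905%; genome 5.05%), and from both WT lists 86 (1.01%; genome 1.52%). The count of 264 became 614 without CBE_1 replicate 1, the shortest list, where the genome share was 1.61%, and 42 of 2375 regions in the better 50% of each list, where it was 0.681%.

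Regions in both libraries of 1 line and in no other list numbered 52 for CBE_2 (0.611%; genome 3.14%), 167 for CBE_1 (1.96%; genome 0.667%) and 906 for WT (10.6%; genome 8.68%). Of the CBE_2-specific ones, 26 lay in the proximal, 23 in the middle and 3 in the distal segment. These were 2.27, 0.399 and 0.188% of the regions of each segment, against 3.14% over the genome. Of the WT-specific ones, 60 were proximal, 622 middle and 224 distal. The WT-specific regions made up 5.24% of the proximal, 10.8% of the middle and 14.02% of the distal regions.

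The 264 regions missing from CBE_2 were spread out and ranked low where they were present. They fell 22 in the proximal, 193 in the middle and 49 in the distal segment. These were 1.92, 3.35 and 3.07% of the regions of each segment, against 0.653% over the genome. The longest run of them was 4 neighbours, at chr18:73964572-73972924 (mm9), out of 2177 regions that both CBE_1 and both WT lists held. The median list percentile of the 264 was 23.2 in CBE_1 and 32.6 in WT. For regions of the same pattern on other chromosomes it was 28.2 in CBE_1 and 40.6 in WT. The median width of the 264 was 611.5 bp. Among these 2177 regions, the missing ones thus stood singly or in short groups between regions that a CBE_2 list had. Counted from WT alone, 1628 of 3998 regions (40.7%; other chromosomes 17.5%) were in neither CBE_2 list. In the distal segment this was 402 of 647 (62.1%). Runs of these regions were not counted.

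Retention depended on strength and on the segment. Of the 3998 chromosome 18 regions present in both WT lists, 49.5% were also in both CBE_2 lists and 54.5% in both CBE_1 lists, where the other chromosomes had 74.1 and 58.6%. When the WT regions of the genome were cut into 4 classes by their significance in WT, 97.8% of the strongest class on chromosome 18 were found in CBE_2, against 98.7% elsewhere. In the weakest class it was 11.4%, against 36.4% elsewhere. In the class next to the strongest it was 84.8%, against 90.4% elsewhere. The strongest WT regions were thus nearly all called in CBE_2 on this chromosome too, and the shortfall in calls grew toward the weaker classes. Being called does not measure strength, and the shared regions ranked lower in CBE_2, as given above. The weakest class held 1524 of the 3998 regions.

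For that class, 35.1% of the proximal regions were found in CBE_2, close to the 36.4% of other chromosomes, but 9.90% of the middle and 7.62% of the distal ones. In CBE_1 the weakest class was kept at 36.6% in the proximal, 22.0% in the middle and 20.1% in the distal segment, against 16.7% elsewhere. In the distal segment 87.5% of the strongest WT regions were found in CBE_1 and 97.5% in CBE_2, out of 40. Starting from the 2675 regions in both CBE_1 lists, 71.4% were in both CBE_2 lists and 81.4% in both WT lists, where other chromosomes had 93.5 and 90.5%. In their weakest class 37.2% were found in CBE_2, against 78.6% elsewhere, and 65.1% in WT, against 75.8% elsewhere.

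**Figure D4:**
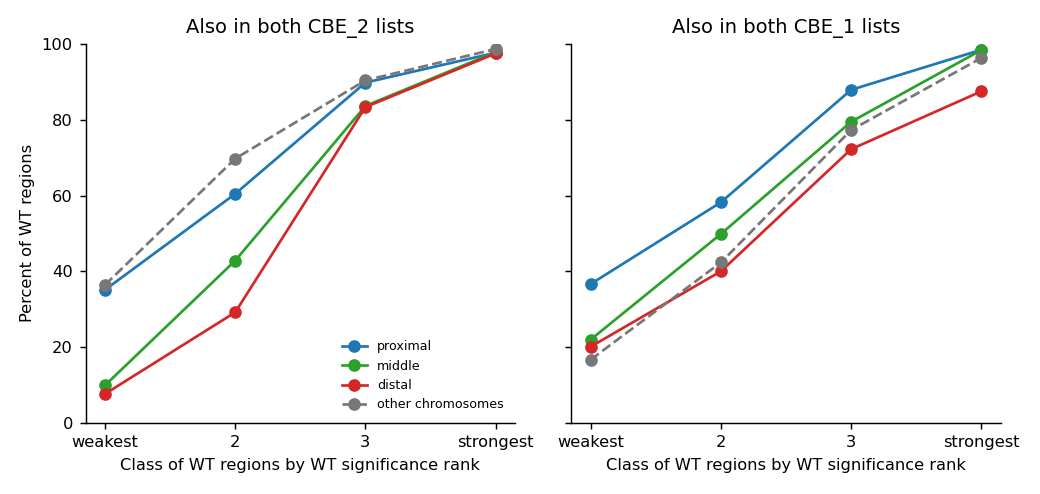
The percent of regions present in both WT lists that were also in both CBE_2 lists (left) or both CBE_1 lists (right), by class of WT significance (horizontal axis, weakest to strongest), for the 3 segments of chromosome 18 and for the other chromosomes (dashed). In CBE_2 the weakest class gives 35.1% in the proximal, 9.90% in the middle and 7.62% in the distal segment against 36.4% elsewhere, and the strongest lies between 97.5 and 98.7% in all.

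Windows around 13 well-known loci show the differences at familiar genes. They are whole Mb of mm9 placed from general knowledge, with approximate borders, and other genes lie in them. Both CBE_2 libraries had a lower share of peaks than both WT libraries in 11 of 13 windows and a higher one in 1, the Zfp521 window. For single bins this held for 75.9% of chromosome 18 and 34.4% of the genome, so the windows were near the share of their own chromosome. The windows not lower in CBE_2, those of Gata6 and Zfp521, are the ones that lie in the proximal segment. Both CBE_1 libraries lay above WT in 8 windows and below in 2, where single bins did so in 50.6 and 23.0% of chromosome 18 and in 31.2 and 47.6% of the genome. With the better 50% of each list the counts were 9 below and 1 above for CBE_2, and 7 below and 4 above for CBE_1.

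The first windows are those of genes of lymphocyte signalling. Nfatc1 (80 to 81 Mb) encodes a calcium-regulated transcription factor, and its window held 93 and 112 peaks in CBE_2, 252 and 258 in CBE_1, and 297 and 282 in WT, a scaled ratio of 0.402 for CBE_2 over WT and of 1.26 for CBE_1 over WT. In the better 50% of each list these were 0.716 for CBE_2 over WT and 0.824 for CBE_1 over WT, which had turned. It is also the bin with the most regions of the chromosome. Of its 375 regions, 28 belonged to the 264 missing from CBE_2, where the chromosome had 3.10% and the genome 0.653%. Of the 64 shared regions of the Nfatc1 window, 42 ranked lower in CBE_2 than in WT and 8 higher, near the share of the whole chromosome. On chromosome 18 as a whole 63.7% ranked lower, and over the genome 33.2%.

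The window of Cd74 (60 to 61 Mb), the invariant chain that escorts MHC class II molecules, held 59 and 63 peaks in CBE_2, 125 and 116 in CBE_1, and 147 and 157 in WT. Its ratios were 0.455 for CBE_2 over WT and 1.14 for CBE_1 over WT, where the libraries overlapped. In the better 50% of each list they were 0.597 for CBE_2 over WT and 0.673 for CBE_1 over WT, both lines below WT. Of the 43 shared regions of the Cd74 window, 34 ranked lower in CBE_2 and 4 higher, where the chromosome had 63.7% lower and the genome 33.2%. The window of Malt1 (65 to 66 Mb), a protease that relays antigen receptor signals to NF-kB, held 57 and 61 in CBE_2, 66 and 74 in CBE_1, and 138 and 111 in WT. Its ratios were 0.539 for CBE_2 over WT and 0.806 for CBE_1 over WT, so it was lower in both mutated lines.

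Nr3c1 (39 to 40 Mb) encodes the glucocorticoid receptor. Its window held 54 and 52 peaks in CBE_2, 74 and 79 in CBE_1, and 109 and 101 in WT, a CBE_2 over WT ratio of 0.574, and 36 of its 41 shared regions ranked lower in CBE_2, where the chromosome had 63.7% and the genome 33.2%. Lmnb1 (56 to 57 Mb), which encodes a nuclear lamin, had a ratio of 0.712, with 46 and 47 peaks in CBE_2, 56 and 57 in CBE_1, and 69 and 79 in WT.

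Differences were smaller at Smad7, Tcf4 and Egr1. The window of Smad7 (75 to 76 Mb), an inhibitor of TGF-beta signalling, had a CBE_2 over WT ratio of 0.810, with 112 and 112 peaks in CBE_2, 135 and 149 in CBE_1, and 155 and 159 in WT. That of Tcf4 (69 to 70 Mb), an E protein transcription factor, had 63 and 64 in CBE_2, 66 and 81 in CBE_1, and 91 and 84 in WT, a ratio of 0.825 that turned to 1.06 in the better 50% of each list and to 1.01 with lists of the same length. The 2 Mb window of Egr1 (34 to 36 Mb), an immediate early transcription factor, had a ratio of 0.838 that turned to 1.04 in the better 50%. Of its 87 shared regions 66 ranked lower in CBE_2 and 12 higher, where the chromosome had 63.7% lower and the genome 33.2%.

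Genes of other lineages were not alike. The window of the protocadherin clusters (37 to 38 Mb), adhesion proteins of neurons, held 28 and 25 peaks in CBE_2, 27 and 23 in CBE_1, and 66 and 74 in WT, with ratios of 0.429 for CBE_2 over WT and 0.513 for CBE_1 over WT. Both mutated lines lay below WT there under each of the settings tried. That of Csf1r (61 to 62 Mb), a receptor of macrophages, had a CBE_2 over WT ratio of 0.546, with 79 and 82 peaks in CBE_2, 129 and 116 in CBE_1, and 176 and 159 in WT, and 0.828 in the better 50%. Mbp (82 to 83 Mb), a myelin protein, had 0.750.

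In the proximal segment, the 2 Mb window of Gata6 (10 to 12 Mb), a transcription factor of endoderm and heart, held 31 and 33 peaks in CBE_2, 42 and 55 in CBE_1, and 36 and 42 in WT. Its CBE_2 over WT ratio of 0.929 came with overlapping libraries and turned to 1.04 with lists of the same length and to 1.40 in the better 50%. Zfp521 (13 to 14 Mb), a zinc finger factor of progenitor cells, had 18 and 19 peaks in CBE_2, 21 and 23 in CBE_1, and 16 and 17 in WT, a ratio of 1.27 for CBE_2 over WT and of 1.91 for CBE_1 over WT. In the better 50% its CBE_2 and WT libraries overlapped.

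**Figure D5:**
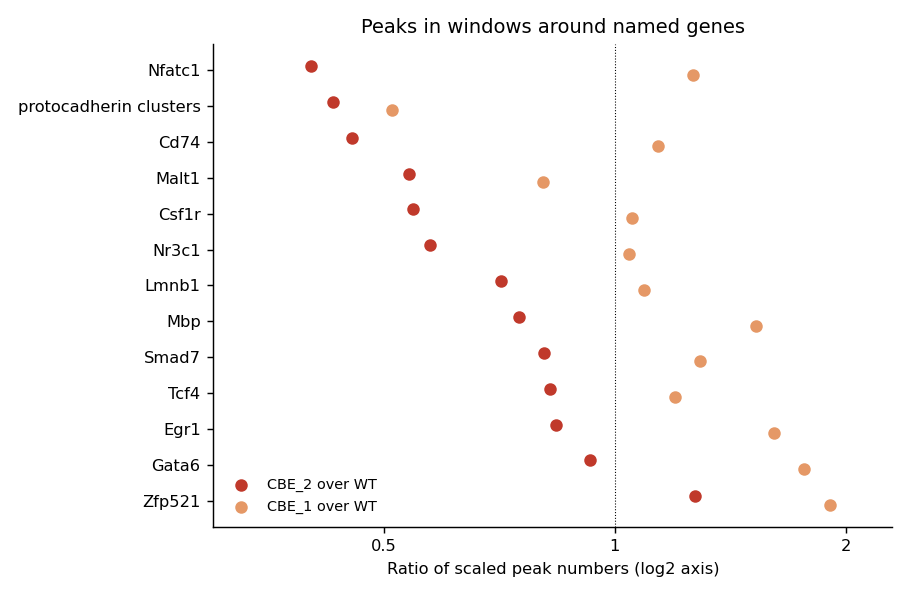
Ratios of scaled peak numbers (log2 horizontal axis) in 13 windows around named genes of chromosome 18 (vertical axis), for CBE_2 over WT and CBE_1 over WT; the dotted line marks a ratio of 1. CBE_2 over WT runs between 0.402 at Nfatc1 and 1.27 at Zfp521, and CBE_1 over WT between 0.513 at the protocadherin clusters and 1.91 at Zfp521.

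Single regions departed much farther than the chromosome as a whole, in both directions. The largest fall in percentile in CBE_2 against WT was at chr18:37945541-37947465 (mm9), which stood at percentile 5.0 and 10.1 of the shared regions in CBE_2, 9.3 and 16.6 in CBE_1, and 85.1 and 87.4 in WT. It is one of those on which both mutated lines fell together. At chr18:36923329-36925183 the fall was seen in CBE_2 and not in CBE_1, with percentiles of 20.4 and 16.5 in CBE_2, 78.5 and 78.0 in CBE_1, and 82.8 and 82.7 in WT. The next were chr18:40037350-40037890, chr18:66429879-66430990 and, in the proximal segment, chr18:12382387-12384965.

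The largest rise was at chr18:80243285-80245204, with percentiles of 76.4 and 79.8 in CBE_2, 65.7 and 57.7 in CBE_1, and 1.1 and 1.4 in WT. It lies in the same Mb as Nfatc1, where most shared regions ranked lower in CBE_2. At chr18:85738802-85740226 in the distal segment, the percentiles were 98.3 and 98.8 in CBE_2, 91.2 and 96.3 in CBE_1, and 30.8 and 32.2 in WT. CBE_1 also exceeded WT at chr18:86879083-86881802, chr18:75501799-75503307 and chr18:45733069-45733962, the other 3 of the 5 largest rises.

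The strongest region missing from CBE_2 was chr18:65145422-65147803, with deposited folds of 19.3 and 17.5 in CBE_1 and 15.3 and 17.0 in WT. Among regions in WT only, chr18:66644891-66645920 had folds of 17.2 and 16.4, followed by chr18:78061194-78061800 with 11.8 and 11.5. Among regions in CBE_2 only, chr18:68127974-68128969 had folds of 15.6 and 15.6, and the next, chr18:25663473-25664149, 7.48 and 7.95. The strongest region in CBE_1 only, chr18:13084720-13085388, had 4.83 and 5.42. Each line thus had single regions of its own on this chromosome, and the strongest were those of WT and CBE_2.

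The regions that ranked best in all 6 lists lay outside the proximal segment. They were chr18:73729970-73734644, chr18:31790805-31795340, chr18:82694638-82697752, chr18:73973474-73978296 and, in the distal segment, chr18:90747917-90751426. Their lowest percentile in any list was 99.4, a value that their choice by rank in all lists fixes.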

How the data were processed

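ATAC-seq was done on 6 libraries, and the authors deposited 1 peak list per library. The tools Trimmomatic, Bowtie2, SAMtools and Picard, without versions, and build mm9 come from the submitters' processing notes. Not given in the sources used here are the peak caller, its settings and any read shift. The deposited lists hold peak positions and the authors' score, fold over background (a ratio) and −log10 p-value and q-value of each peak, used only to rank and describe peaks within a list. Read depth is unknown, so the number of peaks and its counting error set the precision.

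Peaks were merged into regions with Python 3.11.15, pandas 2.3.3, NumPy 2.4.6 and SciPy 1.17.1. A region was present in a list when a peak of it fell there. Peaks were assigned to bins by summit. Log2 ratios of bins used a pseudocount of 0.5 peaks and bins with at least 5 peaks over the lists. Segmentation took the least-squares solution with the lowest Bayesian information criterion, with at least 5 bins in a segment and at most 6 segments. The 4 strength classes of a list and of WT or CBE_1 regions were set by significance rank over the genome. The merging and the segmentation were tested on simulated data. Shares carry Wilson 95% intervals.

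Replicates are numbered in accession order. The members, the lists and the windows were chosen with earlier results of these data known. Named bins are the 5 with the most regions and the 5 with the lowest and the highest CBE_2 over WT ratio. Named regions are the first of the 5 with the best lowest rank, the largest fall or rise in CBE_2 against WT, or the best rank among regions missing from CBE_2 or specific to 1 line. Coordinates are 1-based. Gene annotation of mm9 was not used here, so regions carry no gene names, and no sequence is shown. Alternatives were lists cut to the better 50% or to the same length, another scaling, overlap, ranking, bin size and smallest segment, and leaving out each library.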

Additional observations from a re-analysis of the deposited data

Results flagged for a closer look

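In 8 of 17 shares checked, both CBE_2 libraries lay below both WT libraries and both CBE_1 libraries above them. The shares are those of the chromosome and of its segments and windows, so they are not independent. The chromosome was chosen by its low CBE_2 share, and the pattern was not counted over the genome. The count is therefore a description only. The difference between the mutated lines was not tested. The CBE_2 over CBE_1 ratio of the share was 0.535 for the whole chromosome and 0.533 for its middle segment. By window it was 0.318 at Nfatc1, 0.491 at Mbp, 0.519 at Egr1, 0.550 at Nr3c1, 0.626 at Smad7 and 0.688 at Tcf4. In the better 50% of each list the CBE_1 libraries turned to below WT for the whole chromosome, the middle segment, Nfatc1 and Smad7, and overlapped WT at Nr3c1 and Tcf4. The CBE_2 libraries overlapped WT at Egr1 and Tcf4 under that setting. Of the 8 shares, only that of Mbp kept the pattern there, with ratios of 0.953 for CBE_2 over WT and 1.08 for CBE_1 over WT.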

How the results depend on the processing

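Of 81 recomputed values, 61 were labelled the same, 19 moved and 1 reversed. Counts were the same when within 1.5 times, and breaks were judged by number and not by position. Untested values had to stay within the spread between replicates, and the CBE_1 over WT share had to keep its direction. Some of the 61 could not change, since leaving out a CBE_1 library does not touch the CBE_2 over WT share, nor a CBE_2 library the CBE_1 over WT share. Ranking by p-value gave values identical to those by fold (1120, 643 and -6.35). The 61 therefore overstate how much was tried. The CBE_1 over WT share kept its direction at 1.33 with lists of the same length. The better 50% of each list gave a CBE_2 over WT share of 0.818, the reversed CBE_1 over WT share of 0.972, 42 regions missing from CBE_2, 671 of 1009 shared regions lower in CBE_2 (genome 33.1%) and 409 lower in CBE_1 (40.5%; genome 35.7%) than in WT, a median rank difference of -7.41, 42 of 81 bins lowest in CBE_2 (genome 14.004%) and 1 break. Lists of the same length gave a share ratio of 0.732 and a rank difference of -6.59, and scaling by the peaks on other chromosomes a share ratio of 0.577. Bins of 5 Mb gave 15 of 19 lowest in CBE_2, a smaller number by construction, and rank differences by bin gave 1 break. Alternatives chosen after seeing the data gave 1 break for CBE_2 over CBE_1 and a rank difference of -5.64 for CBE_2 minus CBE_1.

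With each library left out, the CBE_2 over WT share ran between 0.581 and 0.601 and that of CBE_1 over WT between 1.08 and 1.13. Fewer lists then had to meet each rule, and every count was above that from all 6 lists. Regions missing from CBE_2 ran between 320 and 614, the highest without CBE_1 replicate 1, with genome shares of 0.838 to 1.61%. Shared regions lower than in WT ran between 1144 and 1271 for CBE_2 and between 659 and 833 for CBE_1, the rank difference between -6.63 and -5.89, and bins lowest in CBE_2 between 65 and 67. There were 2 breaks each time. The causes were not tested. No paired analysis was possible because the replicate numbers follow accession order and pair no samples. Without read depth, a region missing from a list is one not called there, not one shown to be closed.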
